A study of Caenorhabditis elegans with 4 samples.

Results

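RNA polymerase II peaks on chromosome IV that lie outside the domains rich in piRNA genes are described here, in embryos of *Caenorhabditis elegans*. The members were chosen by position alone: a peak belonged if its midpoint lay in the first 4.5 Mb of IV, in the 6.5 Mb that follow 7.0 Mb, or in the last 0.262 Mb, in WS220 coordinates. By this rule 310 of 2672 peaks of replicate 1 and 488 of 3818 peaks of replicate 2 were members, as were 2359 of 18518 peaks of the series-level list. The 3 parts of the chromosome so marked are called the left stretch, the middle stretch and the right end. The samples were 2 ChIP samples and 2 inputs, replicates 1 and 2 of each, all from wild-type N2 embryos of mixed stages and both sexes, grown at 20 °C. Chromatin was precipitated with a polyclonal rabbit antibody to AMA-1, the largest polymerase II subunit. No sample carried a mutation or a treatment, whole embryos mix all their cell types, and nothing in the labels ties the replicates to separate cultures. Their spread may therefore be technical only. No values of the inputs were analysed here.

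RNA polymerase II transcribes protein-coding genes and many small non-coding RNA genes, and AMA-1 carries its catalytic centre and the C-terminal repeat domain that is phosphorylated during the transcription cycle. A ChIP peak marks DNA to which the enzyme was crosslinked, whether it was initiating, paused or elongating. Most piRNAs of *C. elegans*, the germline small RNAs that guide the Argonaute protein PRG-1, come from many short polymerase II transcription units gathered in a pair of broad domains of chromosome IV, which the rule leaves out. The remaining sequence holds the left arm, most of the centre and the right tip of the chromosome. Autosome arms in this species recombine more and hold more repeats than centres, where essential and broadly expressed genes are concentrated.

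Outside the piRNA-rich domains, chromosome IV carried polymerase peaks about as densely as the other autosomes as a group, and more densely than the piRNA-rich domains beside them. Members numbered 27.5 peaks per Mb in replicate 1 (95% exact Poisson interval 24.5 to 30.8), against 29.6 per Mb (28.3 to 31.0) over I, II, III and V. In replicate 2 they numbered 43.3 per Mb (39.6 to 47.4), against 41.3 (39.8 to 42.9) over I, II, III and V. The density ratio was 0.929 in replicate 1 (exact conditional interval 0.821 to 1.05) and 1.05 in replicate 2 (0.951 to 1.16), with a mean of 0.989 ± 0.085 (SD, n = 2). Both intervals include 1, and the replicates lie on opposite sides of it. The series-level list, no replicate of its own, gave a ratio of 1.06 (1.01 to 1.11), which excludes 1. Such intervals reflect counting error alone and treat adjacent peaks as independent, which makes them too narrow.

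Against the piRNA-rich domains of the same chromosome the members were denser in both replicates. Replicate 1 had 27.5 peaks per Mb outside these domains and 17.4 (14.3 to 21.0) within them, a ratio of 1.58 (1.27 to 1.99). Replicate 2 had 43.3 per Mb outside and 22.4 (18.8 to 26.5) within, a ratio of 1.93 (1.598 to 2.35). The mean ratio was 1.76 ± 0.25 (SD, n = 2). The series-level list gave 1.75 (1.61 to 1.91). These ratios pool unlike domains. The first held 19.6 peaks per Mb in replicate 1 and 28.8 in replicate 2, and the second 15.9 and 18.1. Peaks covered 10.96% of the bases outside the domains and 7.09% within them in replicate 1, and 18.9% outside and 11.1% within them in replicate 2.

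The average over the other autosomes mixes unlike chromosomes, and IV outside the piRNA-rich domains stood in the midst of them. It was sparser than I, with a ratio of 0.733 (0.637 to 0.844) in replicate 1 and 0.834 (0.744 to 0.935) in replicate 2. It was also sparser than III, at 0.757 (0.655 to 0.874) in replicate 1 and 0.847 (0.753 to 0.952) in replicate 2. It was denser than V in both lists, at 1.43 (1.23 to 1.66) in replicate 1 and 1.63 (1.44 to 1.85) in replicate 2. The ratios to II were 0.916 (0.791 to 1.06) and 1.03 (0.913 to 1.16), so a difference was not detectable in either list. With V left out of the background, the members were sparser than I, II and III together in both lists, with ratios of 0.796 (0.702 to 0.900) in replicate 1 and 0.897 (0.812 to 0.991) in replicate 2.

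The members nearest each boundary of the rule show no common pattern in score: the member scored higher than its excluded neighbour at 3 of 4 boundaries in replicate 1 and at 1 of 4 in replicate 2. At the end of the left stretch the last member peak of replicate 1 lay 30.7 kb inside the rule with a score of 506.4, and the first excluded peak lay 155.5 kb beyond it with 157.6. At the start of the middle stretch the first member of replicate 1 was 35.4 kb inside with a score of 89.9, and the nearest excluded peak 13.9 kb away with 1919.1. At its end the last member of replicate 1 was 4.88 kb inside with 894.2, and the first excluded peak 14.8 kb beyond with 82.7. At the start of the right end the first member was 71.4 kb inside with 588.55 and the excluded neighbour 76.6 kb away with 92.6. The score is the authors' own value for a peak from their peak caller, its scale is not given in the sources used here, and it was compared only within a list.

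Peak density was followed along the chromosome in steps of 500 kb, 22 full steps and 1 shorter one at the right end. Over the full steps replicate 1 had between 6 and 23 peaks per step (median 14), and replicate 2 between 12 and 32 (median 21). No full step was without a peak in either replicate. Steps on the other autosomes varied more: over 128 full steps of I, II, III and V replicate 1 had 0 to 37 peaks (median 14) and replicate 2 had 0 to 41 (median 22). As a share of the mean, the SD over steps in replicate 1 was 28.1% on IV outside the piRNA-rich domains and 48.2% on the other autosomes. In replicate 2 these were 26.8% and 40.1%. The pooled values mix unlike chromosomes. Singly the share was 31.7% on I, 43.3% on II, 38.7% on III and 53.2% on V in replicate 1. In replicate 2 it was 24.6% on I and 25.2% on III, below that on IV, and 31.6% on II and 43.6% on V. In the mean of both lists, 15 of the 22 steps on IV lay between the quartiles of the other steps, which were 25.75 and 45 peaks per Mb.

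**Figure D1:**
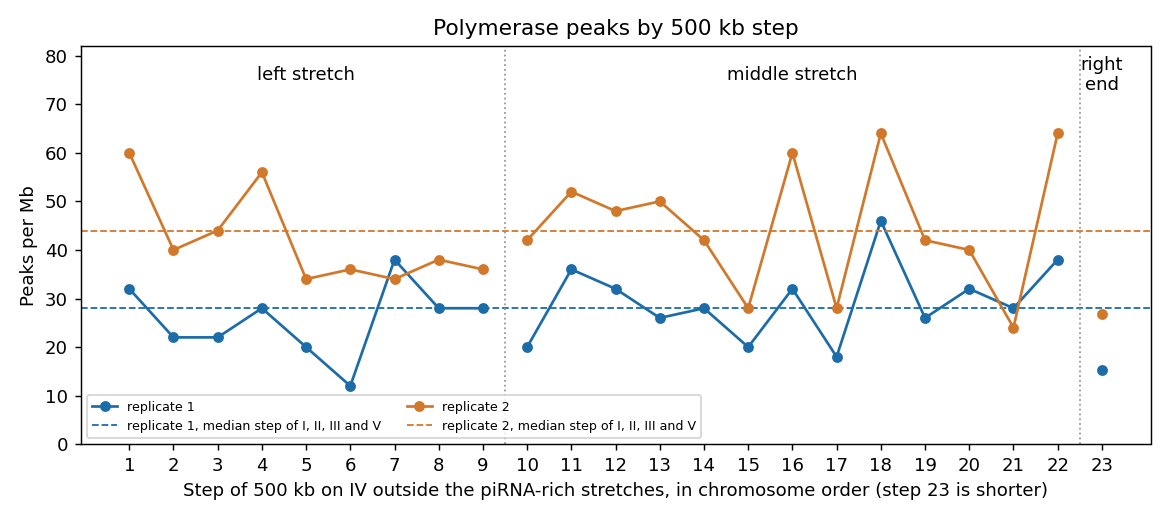
Peaks per Mb (vertical axis) in each 500 kb step of chromosome IV outside the piRNA-rich domains (horizontal axis, steps numbered in chromosome order; dotted lines mark where a domain was left out), with replicate 1 in blue and replicate 2 in orange; dashed lines are the medians of 128 steps on I, II, III and V, 28 per Mb in replicate 1 and 44 in replicate 2. Replicate 2 lies above replicate 1 in all full steps but 2, and step 18 is the densest in the mean of both.

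The densest step ran from 11000001 to 11500000, in the middle stretch. It held 23 peaks in replicate 1 and 32 in replicate 2, a mean of 55 per Mb, which exceeded 91.4% of the steps on the other autosomes. It also had the highest shared coverage, with 19.4% of its bases in peaks of both replicates, and 8 of the 36 member peaks in the top score decile of replicate 1. The next densest steps were the last of the middle stretch, starting at 13000001, with 19 and 32 peaks in replicates 1 and 2, and from 10000001 to 10500000, with 16 and 30. The step at the left end of the chromosome, from 1 to 500000, held the same 16 and 30 peaks as this last one and tied with it at 46 per Mb. They covered less there, 9.40% of the bases in replicate 1 and 21.4% in replicate 2, against 14.8% and 28.4% in the step from 10000001 to 10500000.

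The sparsest full step adjoined the densest one: from 10500001 to 11000000 there were 9 peaks in replicate 1 and 14 in replicate 2, a mean of 23 per Mb. Those peaks were broad: their median width was 6107 bp in replicate 1, the highest of the 23 steps, and 4474.5 bp in replicate 2. They still covered 12.9% and 19.5% of the step. A further pair of steps tied at 24 peaks per Mb. From 2500001 to 3000000 there were 6 and 18 peaks in replicates 1 and 2, which covered 3.89% and 11.7% of the bases, and from 9500001 to 10000000 there were 10 and 14, which covered 9.40% and 13.4%. Step by step, the number of peaks and the bases covered thus did not give the same order.

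Replicate 2 had more peaks than replicate 1 in 20 of the 22 full steps and covered more bases in all 22. The exceptions in number were the step from 3000001 to 3500000, with 19 peaks in replicate 1 and 17 in replicate 2, and that from 12500001 to 13000000, with 14 and 12. Across the 22 steps density correlated between the replicates with r = 0.61 (Pearson) and rho = 0.56 (Spearman), and the covered share with 0.84 and 0.82. Over the 128 steps of the other autosomes the same figures were 0.77 and 0.78 for densities and 0.87 and 0.86 for covered shares. These describe neighbouring steps of single libraries and carry no p-value.

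**Figure D2:**
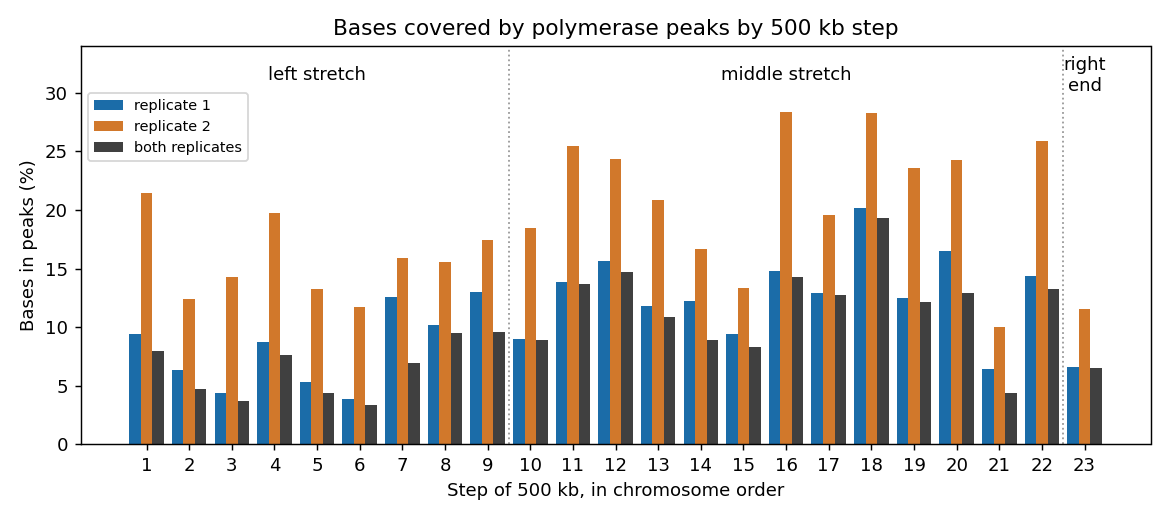
Percent of bases in peaks (vertical axis) of replicate 1 (blue), replicate 2 (orange) and of both at once (dark grey), for each 500 kb step of chromosome IV outside the piRNA-rich domains in chromosome order (horizontal axis). Bases covered in both replicates exceed 10% of a step in 9 of 13 middle steps and in 0 of 9 left steps.

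The left and middle stretches held peaks at like densities, but those on the left were narrower, scored lower and were found less often in the other replicate. This comparison was chosen after the values were seen. The left stretch had 25.6 peaks per Mb and the middle 29.4 in replicate 1, a ratio of 0.870 (0.684 to 1.10), and 42.0 and 44.9 in replicate 2, a ratio of 0.935 (0.774 to 1.13). In the series-level list the 2 densities were 211.6 and 211.1 per Mb. Differences in density were therefore not detectable between the stretches.

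Peaks on the left had a median width of 2498 bp (quartiles 1660 and 3610.5) and those in the middle 3735 bp (2256 and 5417) in replicate 1. In replicate 2 the medians were 2754 bp (1938 and 5084) on the left and 3427.5 bp (2187 and 5723) in the middle. The ratio of left to middle medians was 0.736 ± 0.095 (SD, n = 2), and both lists gave the same direction. Bases in peaks came to 8.20% on the left and 13.1% in the middle in replicate 1, and to 15.8% on the left and 21.5% in the middle in replicate 2. The median score was 148.4 on the left and 241.4 in the middle in replicate 1, and 274.3 and 413.3 in replicate 2. The series-level scores did not follow this, with medians of 7.86 on the left and 7.49 in the middle. Within a list width and score rise together, with a Spearman rho of 0.70 over the members of replicate 1 and 0.73 over those of replicate 2, so these are not separate observations.

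Peaks wider than 8 kb were 30 of 310 members in replicate 1, 9.68%, with 11.0% of all peaks of that list as background. In replicate 2 they were 60 of 488, 12.3%, with a background of 14.1%. On the left they were 6 of 115 and in the middle 24 of 191 in replicate 1, and 13 of 189 on the left and 46 of 292 in the middle in replicate 2. The median width of all members was slightly below that of other autosomal peaks as a group in both lists. In replicate 1 it was 3008.5 bp, against 3213 bp over I, II, III and V, and in replicate 2 it was 3200.5 bp, against 3243 bp, a ratio of 0.962 ± 0.036 (SD, n = 2). Singly, the medians of replicate 1 were 3098 bp on I, 3236 on II, 3134 on III and 3493.5 on V. In replicate 2 they were 3128.5, 3290, 3266 and 3287 bp in the same order, so the members were wider there than peaks of I. The narrowest and widest members spanned 844 and 17554 bp in replicate 1, and 1166 and 26153 bp in replicate 2.

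The same positions of the other autosomes, the first 4.5 Mb and the 6.5 Mb after 7.0 Mb, were set beside the left and middle stretches of IV. Peaks in the first 4.5 Mb had a lower median width than those further in on each of the 5 autosomes and in both replicates. On IV the ratio of widths was 0.669 in replicate 1 and 0.804 in replicate 2, and on I, II, III and V it was 0.777 to 0.883 for replicate 1 and 0.70 to 0.929 for replicate 2. Density behaved otherwise. On II and V the intervals of the density ratio lay below 1 in both lists, with 0.460 (0.353 to 0.594) and 0.701 (0.573 to 0.855) on II and 0.576 (0.427 to 0.769) and 0.477 (0.364 to 0.620) on V. On I both intervals included 1, as they did on IV, and on III only that of replicate 2 did. Chromosome lengths differ, so these positions fall at different fractions of each chromosome.

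**Figure D3:**
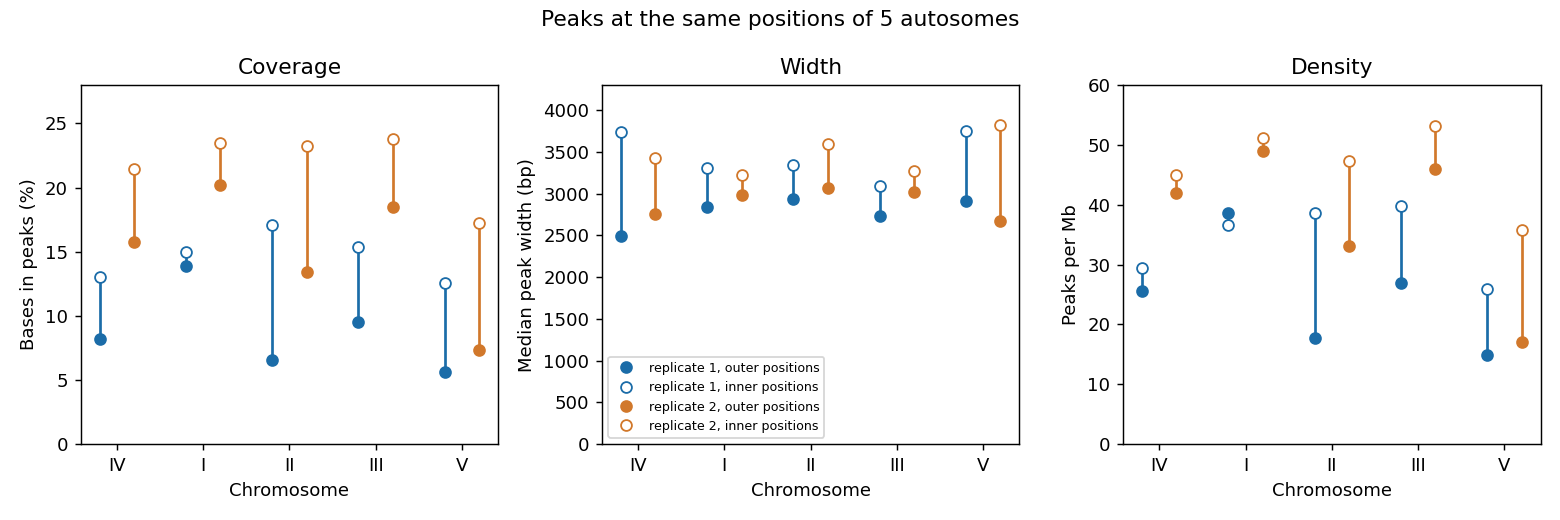
Percent of bases in peaks (left panel), median peak width in bp (middle panel) and peaks per Mb (right panel) in the first 4.5 Mb (outer positions, filled circles) and the 6.5 Mb after 7.0 Mb (inner positions, open circles) of each chromosome, for replicate 1 (blue) and replicate 2 (orange). Widths were lower in the first 4.5 Mb on all 5 chromosomes, while on IV the densities were close, at 25.6 and 29.4 per Mb in replicate 1.

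Replicate sharing of the members was close to that of the whole lists. A peak was counted as shared if it overlapped a peak of the other replicate by at least 1 bp. Of the 310 members of replicate 1, 280 overlapped a replicate 2 peak, 90.3% (95% Wilson interval 86.5 to 93.1), with 86.8% of all replicate 1 peaks as background. Of the 488 members of replicate 2, 252 overlapped a replicate 1 peak, 51.6% (47.2 to 56.0), with a background of 52.6%. Against I, II, III and V the share was 4.65 percentage points higher in replicate 1 (Newcombe interval 0.561 to 7.90) and differed by -1.06 points in replicate 2 (-5.87 to 3.73). The first difference is small, and its interval excludes 0 for counting error only. With both lists cut to peaks at or above their median score, partners included, the interval included 0 (-3.12 to 9.20). Taken singly, the replicate 1 difference was 4.84 points against I (0.193 to 9.06) and 5.36 against II (0.526 to 9.89). It was 6.69 against III (1.86 to 11.2) and 1.02 against V (-3.62 to 5.43). In replicate 2 the interval excluded 0 only against V, at -6.74 points (-12.7 to -0.692).

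Peaks of the left stretch were found in the other replicate less often than those of the middle. In replicate 1, 96 of 115 peaks on the left (83.5%) and 180 of 191 in the middle (94.2%) were found in replicate 2, a difference of -10.8 points (-19.0 to -3.66). In replicate 2, 84 of 189 peaks on the left (44.4%) and 163 of 292 in the middle (55.8%) were found in replicate 1, a difference of -11.4 points (-20.3 to -2.23). With both lists cut to peaks at or above their median score, partners had to reach it too. With this cut the difference was -2.13 points in replicate 1 (-16.8 to 9.23), which includes 0. In replicate 2 it was -15.2 points (-27.9 to -1.62). All 4 replicate 1 peaks and 5 of 7 replicate 2 peaks of the right end were shared. Every replicate 1 peak was shared in 7 of 13 middle steps and in 1 of 9 left steps. The lowest shares of replicate 1 were in the steps from 4000001 to 4500000 and from 12500001 to 13000000, with 10 of 14 each, and from 3000001 to 3500000, with 14 of 19. The lowest share of replicate 2 was 5 of 18, in the step from 2500001 to 3000000, and the highest 9 of 12, in that from 12500001 to 13000000.

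Left and middle stretches also differ in score, and in replicate 2 the shared part was larger in each higher score quartile. Among replicate 1 members the share was 86.8% in the lowest score quartile of the list, 81.9% in the next, 96.1% in the one above and 97.3% in the top quartile. Among replicate 2 members it was 18.2%, 32.0%, 73.0% and 89.7% in the same order. The left stretch had 33.9% of its replicate 1 peaks in the lowest quartile and the middle 19.4%, and for replicate 2 these shares were 33.9% and 22.6%. Within the quartiles of replicate 2, taken from the lowest up, the left and middle shares were 11 of 64 and 12 of 66 peaks, then 27.3% and 34.2%, then 71.4% and 74.0%. In its top quartile they were 79.5% (31 of 39, Wilson interval 64.5 to 89.2%) on the left and 94.6% (70 of 74, 86.9 to 97.9%) in the middle. In replicate 1 the pairs from the lowest up were 82.1% and 91.9%, then 72.7% and 87.5%. In its upper quartiles they were 92.3% (24 of 26) and 98.0% (48 of 49), then 94.1% (16 of 17) and 98.2% (56 of 57). These differences within quartiles were not tested.

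The 30 replicate 1 members with no partner in replicate 2 were not all weak. Their median score was 130.1 against 226.7 for the shared ones, and their median width 2703.5 against 3125 bp. The one at 9203073 to 9213543 spanned 10471 bp and scored 2091.01, at percentile 92.7 of its list. That at 3037292 to 3051291 spanned 14000 bp with a score of 182.35, and that at 12363695 to 12376656 spanned 12962 bp with 511.12. Series-level peaks lay within all 3, covering 9058, 9605 and 10462 bp in the order named. The nearest replicate 2 peak was within 5 kb of 14 of the 30. Unshared members of replicate 2 were narrower than shared ones, with medians of 2148.5 against 4913 bp. Some were broad all the same. The widest, at 12442180 to 12452134, spanned 9955 bp with a score of 127.92, and the next, at 2306706 to 2316343, spanned 9638 bp with 702.81. The peak at 1085555 to 1094598 spanned 9044 bp with a score of 2940.28.

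At sites with exactly 1 peak in each list the replicates ranked the members alike to a moderate degree, and less so on the left. There were 218 such sites, 70.3% of the replicate 1 members, against 59.7% of replicate 1 peaks on I, II, III and V. By single chromosome this share ran from 54.7% on III to 68.9% on V. The Spearman rho of the scores was 0.59 over the 218 sites and 0.66 over 1151 sites of the other autosomes. Singly, rho on these ran from 0.58 on III to 0.71 on V. It was 0.45 over 69 sites on the left and 0.64 over 146 in the middle, and without sites that scored 3100 or more in either list 0.22 over 60 and 0.45 over 125. These values describe sites of 2 libraries, with no test. Replicate 2 gave the broader peak at 168 of the 218 sites, 77.1%, with a median width ratio of 1.19, and midpoints lay a median of 319.5 bp apart.

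**Figure D4:**
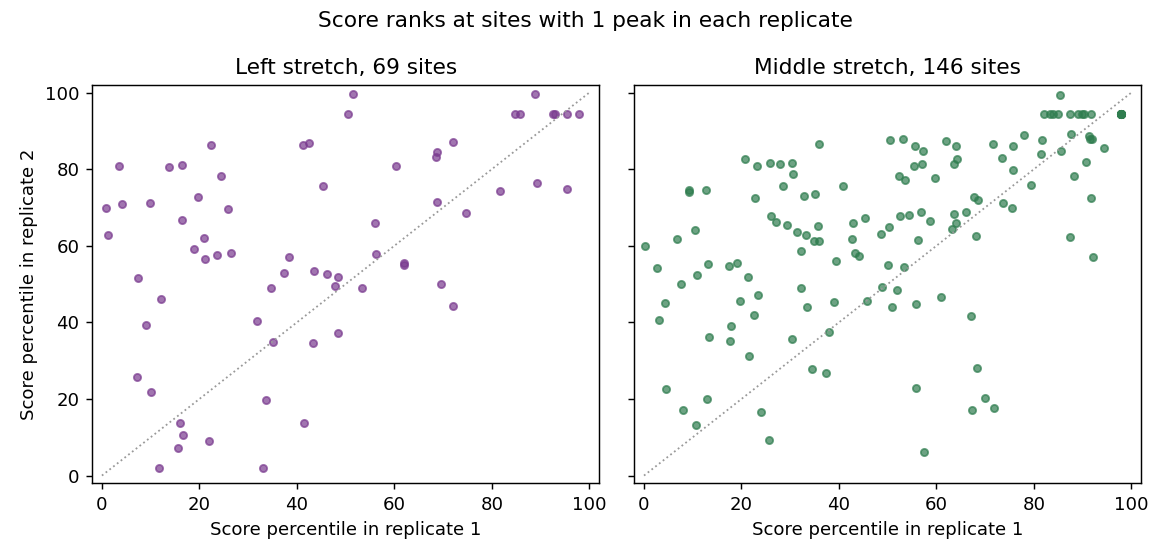
Score percentile within replicate 2 (vertical axis) against that within replicate 1 (horizontal axis) for each site of chromosome IV outside the piRNA-rich domains with exactly 1 peak in each list, in the left stretch (left panel, 69 sites) and the middle stretch (right panel, 146 sites); the dotted line marks equal percentiles. Ranks of the replicates follow each other less closely on the left, with a Spearman rho of 0.45 on the left and 0.64 in the middle.

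Peaks of the highest scores occurred in all 3 parts. Many peaks carry a score of exactly 3100, 101 in replicate 1 and 368 in replicate 2, with 9 and 25 above it. Members that reached 3100 numbered 16 in replicate 1 (5.16%, background 4.12%) and 44 in replicate 2 (9.02%, background 10.3%). All 16 of replicate 1 overlapped a replicate 2 peak with the same score of 3100: 3 on the left, 12 in the middle and 1 at the right end, where the middle held 191 of the 310 members. The 44 of replicate 2 were 15 on the left (7.94% of its peaks there), 28 in the middle (9.59%) and 1 at the right end, a split near that of all 488 members, of which the middle held 292. The 10 named below tie in score and were ordered by replicate 1 width, so their order among the 16 says nothing of occupancy. Of these 10, 2 lay on the left, 7 in the middle and 1 at the right end.

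The broadest of the 10 was on the left, at 1910721 to 1921580 in replicate 1 (10860 bp), while replicate 2 placed it at 1908027 to 1922679 (14653 bp). It held 4 series-level peaks, the highest of which scored 66.3 in that list, at percentile 97.2. The other one on the left lay at 3229756 to 3236058 in replicate 1 (6303 bp), and replicate 2 bounded it at 3225248 and 3236235 (10988 bp). In both, replicate 2 started earlier and ended later.

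The middle stretch held a close pair, at 11322371 to 11329888 (7518 bp) and 11336809 to 11345004 (8196 bp) in replicate 1, in the densest step. Replicate 2 bounded both alike, at 11322507 to 11329886 and 11336056 to 11345063. The domain at 8328981 to 8338002 (9022 bp) matched that of replicate 2 closely, at 8329089 to 8337974 (8886 bp), and held a single series-level peak of 8025 bp. Single series-level peaks also lay in the domains at 11521594 to 11528612 and, at the right end, at 17276250 to 17282810 (6561 bp). No other member of the right end reached 3100 in either list.

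The other 3 domains in the middle were those at 9769702 to 9776076, at 8427614 to 8433950 and at 12083822 to 12089796 in replicate 1 coordinates. In replicate 2 the last of these began earlier, at 12078555, and spanned 12183 bp against 5975 bp in replicate 1. The first held the series-level peak with the second highest score among the members, 159.11, at 9771946 to 9774887. The highest, 166.95, lay on the left at 3335904 to 3338920, in a domain of only 3552 bp in replicate 1 that also scored 3100 in both replicates and was the narrowest of the 16. The next series-level scores were 137.7 at 11106116 to 11110826, 137.58 at 12210074 to 12216941 and 128.79 at 8776240 to 8778279, all of them inside peaks of both replicates.

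The longest domains were not all among those of highest score in the replicate lists. Peaks of both replicates covered the same bases in 283 separate runs outside the piRNA-rich domains, with a median of 2887 bp (quartiles 1926.5 and 4723). The longest run, from 7989817 to 8007243, spanned 17427 bp. It had a score of 503.37 in replicate 1, at percentile 71.8, but of 103.24 in replicate 2, at percentile 17.7, and held 14 series-level peaks, the highest number for a replicate 1 member. The next, from 7131137 to 7147590 (16454 bp), had 263.52 in replicate 1 and 126.45 in replicate 2, at percentiles 55.9 and 22.9, and held 6. Both replicates gave these a like outline, with scores that ranked from low to above the middle of their lists. In the series-level list the strongest peak within them ranked high, with 84.39 at percentile 98.5 in the longest run and 51.12 at percentile 95.1 in the next.

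The remaining 3 of the 5 longest runs scored higher in at least 1 replicate. From 10666344 to 10680414 (14071 bp) the scores were 775.42 in replicate 1 and 1250.18 in replicate 2, in the sparsest step. From 13025015 to 13038687 (13673 bp) they were 1179.18 and 3100, and the replicate 2 peak, from 13012535 to 13038687, was with 26153 bp the widest member of either list. From 11591849 to 11604874 (13026 bp) they were 1987.92 and 533.12. All 5 of these runs lay in the middle stretch, which held 772 of the 1078 kb covered in both replicates. The sixth, from 4008345 to 4021298, was on the left and nearly as long as the fifth, with 12954 bp.

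Outside the piRNA-rich domains, the longest stretch of IV without a peak of either replicate measured 145.1 kb. On the other autosomes the longest measured 203.1 kb on I, 324.1 kb on II, 206.6 kb on III and 697.8 kb on V. That of IV is named first here. It lay in the middle stretch, between 12861090 and 13006166, with 3 series-level peaks of scores up to 13.2. It was followed on the left by 2016244 to 2142976 (126.7 kb, 10 series-level peaks) and 3874031 to 3998761 (124.7 kb, 1 series-level peak). Over IV outside the piRNA-rich domains 4 such stretches exceeded 100 kb, 0.355 per Mb, against 68 on I, II, III and V, 1.05 per Mb, of which 39 were on V. On III there were 5, 0.363 per Mb. Stretches on IV end at the limits of the rule, which shortens any that run across them.

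The series-level list split the members into narrower peaks, with a median width of 379 bp against 409 bp over I, II, III and V. A replicate 1 member overlapped a mean of 2.58 series-level peaks, and a replicate 2 member 3.27. Series-level peaks under the same broad peak are not independent, so the intervals given for this list are too narrow. Of the 2359, 690 (29.2%, Wilson interval 27.4 to 31.1) were found in both replicates, with 33.2% as background over all chromosomes. A further 907 (38.4%, background 35.3%) were found in replicate 2 only, 106 (4.49%, background 6.18%) in replicate 1 only and 656 (27.8%, background 25.4%) in neither. Against I, II, III and V the share found in both fell by 4.02 points (Newcombe interval -6.00 to -1.99). Without replicate 1 this difference was -0.632 points (-2.71 to 1.39), and without replicate 2 it was -6.44 points (-8.51 to -4.33). With all lists cut to peaks at or above their median score, partners included, it was -2.70 points (-5.29 to 0.051), which includes 0.

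The stretches differed in this list too, with intervals too narrow for the reason given above. On the left 198 of 952 series-level peaks (20.8%) were found in both replicates, and in the middle 487 of 1372 (35.5%), a difference of -14.7 points (-18.3 to -11.0). Those found in neither were 330 on the left (34.7%) and 310 in the middle (22.6%), a difference of 12.1 points (8.33 to 15.8). Between the stretches no difference was detectable in the share found in replicate 2 only, 38.7% on the left and 38.3% in the middle (difference 0.390 points, -3.61 to 4.42). Series-level peaks found in both replicates scored a median of 18.6 on the left and 14.5 in the middle, and those in neither 5.40 and 5.11. The share found in both was also lower in the first 4.5 Mb than in the 6.5 Mb after 7.0 Mb on the other autosomes, by differences of -4.33 points on I (-7.87 to -0.733), -17.4 on II (-21.3 to -13.3), -9.45 on III (-12.9 to -5.90) and -9.23 on V (-14.7 to -3.53). Lower sharing in the first 4.5 Mb was thus not limited to IV in this list. In the replicate lists the same difference had an interval below 0 on II in replicate 2, at -21.3 points (-30.5 to -11.5), and intervals that included 0 in the other 7 cases on I, II, III and V. By step, the median share found in neither was 36.6% over 9 left steps and 21.5% over 13 middle steps, and among full steps it was highest, 45.5%, from 2500001 to 3000000.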

How the data were processed

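Peak lists of AMA-1 ChIP-seq were used: 1 for each of 2 ChIP samples and 1 for the series. Embryos were fixed in 2% formaldehyde for 30 min, per the labels' protocols. The submitters' processing notes name BWA and the build ce10. WormBase WS220 is the build and the source column names MACS for the replicate lists and MACS v2 for the series-level list, per the file headers and columns. How peaks were thresholded, and how the series-level list was made, is not stated. The deposited score is the authors' value for each peak, and the other deposited columns used are starts and ends; read depth is unknown. No filter was applied, so every member entered. The members, lists and comparisons were chosen with earlier results of these data known.

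Width was end minus start plus 1. Chromosome length was the highest peak end over the 3 lists, 17461909 for IV. Covered bases were cut at the limits of each stretch. A peak's percentile is its rank by score within its list, ties averaged. Density intervals are exact Poisson, ratios exact conditional binomial, shares Wilson and differences of shares Newcombe, all at 95%. A density difference was called where both intervals excluded 1 on the same side. No p-value was computed, since 2 samples allow no permutation test and peaks are not replicates. Regions named were: the 10 shared replicate 1 peaks of highest mean percentile (ties by replicate 1 score, width, position), the 5 longest runs covered in both lists, the 3 densest and 3 sparsest steps (ties named), the 3 longest stretches without peaks and the 5 series-level peaks of highest score; others were chosen after their values were seen. Genes and sequences were not used here. Density ratios with their intervals, overlaps and width ratios were tested on simulated lists. The Poisson, Wilson and Newcombe intervals were not. Simulated peaks were placed independently and with fixed widths, so the effect of dependence between neighbouring peaks on the intervals was not tested. Alternatives covered score threshold, overlap rule, merging, boundaries, background, list and step. The work used matplotlib 3.10.9, scipy 1.17.1, pandas 2.3.3, numpy 2.4.6 and Python 3.11.15.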

Additional observations from a re-analysis of the deposited data

How the results depend on the processing

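Of 64 alternative values over 13 results, 43 kept their direction and side of the limit, or moved by less than the replicate SD. For values with no interval, leaving out a replicate always stays within that SD. The density ratio to other autosomes, 0.989, changed side of 1 with peaks merged (1.02), with the series-level list (1.06, interval excluding 1) and ranged from 0.929 to 1.05 with a replicate left out; without V it was 0.847 and was called, and the covered ratio was 0.825. The ratio to the piRNA-rich domains, 1.76, stayed called, from 1.52 (boundaries moved outwards by 250 kb) to 1.93 (without replicate 1). With both lists cut to peaks at or above their median score, partners included, the replicate 1 share difference, 4.65 points, lost its call (3.79). That of replicate 2, -1.06, was called with at least 50% of the peak covered (-5.25) and turned positive without V (0.419). The series-level difference, -4.02, lost its call with all lists cut in this way (-2.70) and ranged from -6.44 to -0.632 with a replicate left out. Left to middle, the covered ratio, 0.681, was 0.781 in the series-level list and 0.575 at or above the median score. The width ratio, 0.736, was 0.895 and 0.849 in the same order. With both lists cut to peaks at or above their median score the replicate 1 share difference, -10.8 points, was -2.13 and not called. The close-neighbour difference of replicate 1, -8.54 points, was 0.236 in replicate 2, 0.224 in the series-level list and -3.90, not called, at or above the median score. The densest step, 1.58 times the median, was 1.40 times in the series-level list, 2.13 in 250 kb steps and 1.24 in 1 Mb steps. For none of these was the cause tested. Comparisons of the left with the middle stretch, of close neighbours and without the right end were added after seeing the data. No paired analysis was possible because the lists come from 1 group, the inputs having no values analysed here. What depth limits cannot be given, since read numbers are unknown.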

Other observations

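Replicate 1 peaks on IV outside the piRNA-rich domains had a close neighbour less often than those of the other autosomes as a group. Of 310 members 76 (24.5%) had another peak of the list within 1 kb, against 637 of 1927 (33.1%) on I, II, III and V, a difference of -8.54 points (Newcombe interval -13.5 to -3.06). The median distance to the nearest peak was 6988.5 bp among the members and 3092 bp on the other autosomes, with 2463 bp on I, 3425 bp on II, 2458 bp on III and 4535 bp on V. By chromosome the difference was -12.5 points against I (-18.5 to -6.08) and -12.0 against III (-18.2 to -5.48), while the intervals included 0 against II (-6.42 points, -12.7 to 0.081) and V (-1.11 points, -7.43 to 5.38). Against the piRNA-rich domains of IV, where 25.9% had such a neighbour, it was -1.41 points (-11.4 to 7.51). The difference from the group held with limits of 500 bp (-7.78 points), 2 kb (-9.60 points) and 5 kb (-12.9 points). With the list cut to peaks at or above its median score, neighbours included, the interval included 0 (-3.90 points, -9.31 to 3.01). No difference was detectable in replicate 2, where 33.2% of members and 33.0% of other autosomal peaks had such a neighbour (difference 0.236 points, -4.18 to 4.87), or in the series-level list (0.224 points, -1.47 to 1.82). Both peaks of a close pair were counted, so the intervals of these differences are too narrow. The comparison was chosen after its values were seen, and its cause was not tested.

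Replicate 2 members that joined several replicate 1 peaks were fewer than elsewhere as a share: 28 of 488 (5.74%) overlapped 2 or more, against 215 of 2685 (8.01%) on I, II, III and V, given as a description with no test.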
